A study of Mus musculus with 8 samples.

Results

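The insulin-like growth factor (IGF) system was measured in retinal pigment epithelium (RPE) isolated from mice with and without *Bbs8*, a gene of the cilium. Its members here are 10 genes, taken by name from the 31053 genes counted: the ligands *Igf1* and *Igf2*, the receptors *Igf1r* and *Igf2r*, and the binding proteins *Igfbp2*, *Igfbp3*, *Igfbp4*, *Igfbp5*, *Igfbp6* and *Igfbp7*. All 10 were found in the counts, and 10 of 10 passed the filter on low values.

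The libraries came from 4 Bbs8-/- mice and 4 Bbs8+/+ littermates of the strain C57/Bl6, all at postnatal day 29 (P29), untreated and of undetermined sex. The deletion was constitutive, which makes every ocular tissue of these mice mutant. RPE was peeled as sheets from trypsin-treated eyecups, and 30 ng of RNA per animal went into a QuantSeq 3′ library, in which 1 read is made near the poly-A end of a transcript. Counts therefore do not grow with transcript length, and levels are given as CPM, counts relative to the size of a library after scaling between libraries by TMM factors, without division by length.

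IGF-I and IGF-II are secreted peptides that activate the receptor tyrosine kinase encoded by *Igf1r*, which signals through insulin receptor substrates to the PI3K-AKT and RAS-MAPK pathways. The receptor encoded by *Igf2r* has no kinase; it carries IGF-II and lysosomal enzymes bearing mannose 6-phosphate to the lysosome. The classical IGF binding proteins hold the ligands with high affinity outside the cell and are released from them by proteases, whereas the protein of *Igfbp7* binds IGFs weakly and is found in basement membranes. RPE cells are known to express the IGF-I receptor and to secrete several binding proteins.

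The binding proteins share a cysteine-rich amino-terminal domain, and the stretch that marks the family is shown first because the results turn on these genes. The coding sequence of each gene (GENCODE M21, GRCm38) was searched in frame for codons of cysteine, glycine, cysteine, cysteine, any 2 residues and cysteine. Cysteine codons are in capitals.
Igfbp2, chr1:72824781-72824801, plus strand: TGCggcTGCTGCtccgtgTGC
Igfbp3, chr11:7213566-7213586, minus strand: TGCggcTGCTGCctgactTGC
Igfbp4, chr11:99041653-99041673, plus strand: TGCggtTGTTGCgccactTGC
Igfbp5, chr1:72873966-72873986, minus strand: TGTggcTGCTGCatgactTGC
Igfbp7, chr5:77407826-77407846, minus strand: TGCgggTGCTGCccggtgTGT
Each of these 5 genes held the pattern once. *Igfbp6* did not hold it, and its protein is known to lack some of the cysteines of this domain. Each stretch lies within a single coding exon.

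Of the binding protein genes, 3 differed between the genotypes, and the 250 bases before their RefSeq transcription starts (GRCm38.p6) are shown for reference beside their values. Capitals mark the TATA box TATAAA and the GC box GGGCGG, each searched on both strands.
Igfbp4, chr11:99040994-99041243, plus strand: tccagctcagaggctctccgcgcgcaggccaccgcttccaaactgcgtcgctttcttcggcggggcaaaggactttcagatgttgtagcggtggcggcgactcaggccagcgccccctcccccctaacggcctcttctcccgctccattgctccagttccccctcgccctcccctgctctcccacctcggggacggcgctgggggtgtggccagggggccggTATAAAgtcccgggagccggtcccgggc
Igfbp5, chr1:72874866-72875115, minus strand: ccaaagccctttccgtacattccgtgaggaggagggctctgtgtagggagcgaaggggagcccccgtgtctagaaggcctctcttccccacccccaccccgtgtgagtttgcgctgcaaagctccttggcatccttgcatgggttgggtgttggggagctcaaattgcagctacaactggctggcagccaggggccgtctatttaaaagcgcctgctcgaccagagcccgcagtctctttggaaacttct
Igfbp7, chr5:77408046-77408295, minus strand: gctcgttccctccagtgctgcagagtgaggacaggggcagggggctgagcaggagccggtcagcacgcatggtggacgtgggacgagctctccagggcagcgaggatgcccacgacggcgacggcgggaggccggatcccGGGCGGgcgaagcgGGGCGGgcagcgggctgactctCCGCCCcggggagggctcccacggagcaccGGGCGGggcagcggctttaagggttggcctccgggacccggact
The *Igfbp7* window held 4 GC boxes, which start 110, 96, 74 and 44 bases before the transcription start, and no TATA box. The *Igfbp4* window held a single TATA box, 28 bases before the start, and no GC box, and neither set of letters was in the *Igfbp5* window. Of 32851 promoters of the same length, 12.4% held the TATA box and 32.7% the GC box. Among the 14 promoters listed for the 10 members, 2 held the TATA box and 6 the GC box. GC content was 69.2% for *Igfbp4*, 58.8% for *Igfbp5* and 74.0% for *Igfbp7*, against a median of 52.4% over all promoters. These letter matches are a description of the windows and were not set against the expression values.

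The libraries held 2389835 to 3093428 counts on genes, so that 3 counts, taken as the floor, stood at 1.02 to 1.23 CPM. This floor covers counting error only. *Ttc8*, the symbol of *Bbs8*, had 105 to 144 counts in Bbs8+/+ and 5 to 15 in Bbs8-/- libraries (log2 fold change -3.34, adjusted p = 2.48e-11, edgeR), as the labels state. Bbs8+/+ replicate 1 stood somewhat apart from its group. The chi-square per degree of freedom of its counts against the other Bbs8+/+ libraries was 5.76 to 7.04, and 2.83 to 3.32 among the other three, so values are also given without it where it bears on them. Of 12889 genes tested, 704 were up-regulated (5.46%), 877 were down-regulated (6.80%) and 1581 were called in either direction (12.3%) at an adjusted p under 0.05. In 2069 (16.1%) the genotypes did not overlap.

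Of the 10 members, 1 was up-regulated, 2 were down-regulated and 7 did not pass the threshold. *Igfbp7* rose to 2.54 times its Bbs8+/+ level, *Igfbp4* fell by 47.6% and *Igfbp5* fell by 25.6%. These were also the 3 members whose genotypes did not overlap. The median log2 fold change of the members was -0.00278, beside 0.02 over all genes tested. The 3 called members are 3 of the 4 most abundant ones, while *Igf1*, *Igf2*, *Igfbp2*, *Igfbp3* and *Igfbp6* had no more than 82 counts in any library.

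**Figure D1:**
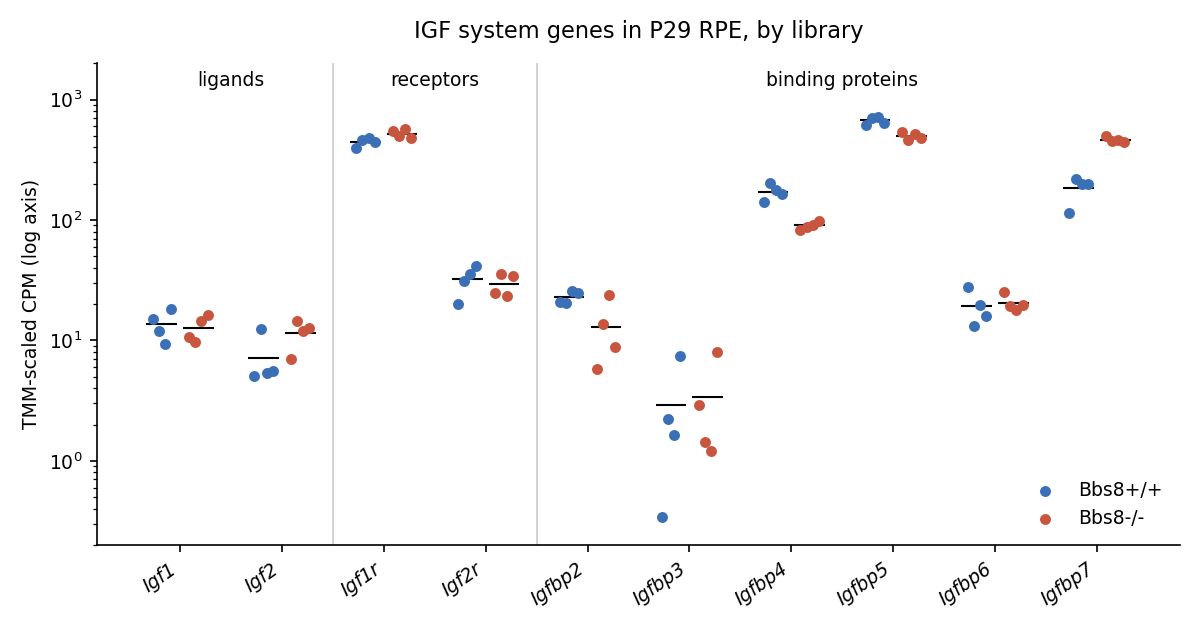
Level of each IGF system gene in each of the 8 libraries, as TMM-scaled CPM on a log axis, with Bbs8+/+ in blue, Bbs8-/- in red and a black line at each group mean (n = 4). *Igfbp7* sits at 114 to 220 CPM in Bbs8+/+ and 447 to 500.2 in Bbs8-/- libraries, and *Igfbp4* and *Igfbp5* are lower in every Bbs8-/- library.

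Among the ligands, *Igf1* (chr10:87858265-87937042, plus strand) had 44, 32, 23 and 49 counts in Bbs8+/+ and 26, 27, 36 and 46 in Bbs8-/- libraries. The groups overlapped over most of their range. Its mean level was 13.6 ± 3.81 CPM (SD, n = 4) in Bbs8+/+ and 12.7 ± 3.04 in Bbs8-/- RPE, a log2 fold change of -0.10 with a 95% confidence interval of -0.75 to 0.55 and an adjusted p of 0.902. *Igf2* (chr7:142650766-142666816, minus strand), the fetal growth factor that is expressed from the paternal allele in most tissues, had 15, 33, 13 and 15 counts in Bbs8+/+ and 17, 40, 30 and 36 in Bbs8-/- libraries. Bbs8+/+ replicate 2 stood at 12.3 CPM, above the 5.09 to 5.58 CPM of the other Bbs8+/+ libraries and within the Bbs8-/- range of 6.99 to 14.4 CPM. The difference, 0.70 on the log2 scale with an interval of -0.10 to 1.501, did not pass the threshold (adjusted p = 0.296), and neither did it without that library (log2 fold change 1.11, adjusted p = 0.118). *Igf2* shares 16048 bases with the longer gene model *Gm49394* on the same strand, which had 0 counts in all libraries. Reads set aside as ambiguous between these genes would be missing from the *Igf2* counts, and their number was not tested.

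The receptors differed in abundance by an order of magnitude. *Igf1r* (chr7:67952827-68233668, plus strand) stood at 396, 458, 481 and 440 CPM in Bbs8+/+ and at 543, 496, 564 and 479 CPM in Bbs8-/- libraries. The groups met at their edges: the lowest Bbs8-/- library was just under the highest Bbs8+/+ library. Its mean was 444 ± 36.1 CPM in Bbs8+/+ and 521 ± 39.6 in Bbs8-/- RPE, a log2 fold change of 0.23 with an interval of 0.06 to 0.40. Its unadjusted p was 0.00900 and its adjusted p 0.0660, so it was not called. It passed under 4 of the 15 alternative settings, among them DESeq2 (adjusted p = 0.0340) and scaling by library size alone (log2 fold change 0.32, adjusted p = 0.00742). Without Bbs8+/+ replicate 1, the lowest library for *Igf1r*, the log2 fold change was 0.18 (adjusted p = 0.129). *Igf2r* (chr17:12682406-12769664, minus strand) had 59, 83, 87 and 112 counts in Bbs8+/+ and 60, 100, 58 and 98 in Bbs8-/- libraries. It stood at 32.1 ± 9.16 CPM in Bbs8+/+ and 29.5 ± 6.49 in Bbs8-/- RPE, with a log2 fold change of -0.11, an interval of -0.58 to 0.36 and an adjusted p of 0.837. *Airn*, the antisense RNA that overlaps it, held 6 to 10 counts in Bbs8+/+ and 1 to 16 in Bbs8-/- libraries, and the strand setting of the counting is not given in the sources used here.

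*Igfbp7* (chr5:77349240-77408041, minus strand), also known as IGFBP-related protein 1, had the largest change of the members. It stood at 114, 220, 200 and 199 CPM in Bbs8+/+ and at 500.2, 449, 460 and 447 CPM in Bbs8-/- libraries. Every Bbs8-/- library was over 2-fold above the highest Bbs8+/+ library, and Bbs8+/+ replicate 1 was the lowest of all. The mean rose from 183 ± 47.1 to 464 ± 24.7 CPM, a log2 fold change of 1.34 with a standard error of 0.12, an interval of 1.10 to 1.59 and an adjusted p of 3.56e-11. Without Bbs8+/+ replicate 1 the log2 fold change was 1.17 (adjusted p = 7.45e-19). The last 85 bases of the gene overlap the 3′ end of *Polr2b*, a subunit of RNA polymerase II on the opposite strand. *Polr2b* stood at 82.5 ± 5.97 CPM in Bbs8+/+ and 70.1 ± 15.4 in Bbs8-/- RPE (log2 fold change -0.23, adjusted p = 0.381), and its part in the *Igfbp7* counts was not tested.

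*Igfbp4* (chr11:99041244-99054392, plus strand), an IGF carrier that the protease PAPP-A cleaves, stood at 141, 204, 178 and 165 CPM in Bbs8+/+ and at 82.7, 87.9, 91.0 and 98.4 CPM in Bbs8-/- libraries. The ranges were well apart, and the Bbs8-/- libraries lay close together. The mean fell from 172 ± 26.4 to 90.0 ± 6.56 CPM, a log2 fold change of -0.93 with a standard error of 0.12, an interval of -1.18 to -0.68 and an adjusted p of 3.01e-07.

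*Igfbp5* (chr1:72857932-72874884, minus strand), a binding protein that also attaches to extracellular matrix, was the most abundant member in Bbs8+/+ RPE. It stood at 620, 706, 721 and 643 CPM in Bbs8+/+ and at 538, 460, 521 and 481 CPM in Bbs8-/- libraries. The highest Bbs8-/- library was below the lowest Bbs8+/+ library. The mean fell from 672 ± 48.9 to 500.04 ± 35.9 CPM, a log2 fold change of -0.43 with a standard error of 0.08, an interval of -0.59 to -0.27 and an adjusted p of 1.44e-04. Tested against a fold change of 1.2 instead of no change, it did not pass (adjusted p = 0.0774).

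*Igfbp2* (chr1:72824503-72852474, plus strand), an IGF carrier whose gene ends 5457 bases from the end of *Igfbp5* on the other strand, stood at 20.7, 20.6, 25.8 and 24.9 CPM in Bbs8+/+ and at 5.76, 13.6, 23.6 and 8.75 CPM in Bbs8-/- libraries. The Bbs8+/+ libraries lay close together, and 3 of the Bbs8-/- libraries were below all of them while replicate 3 was among them. The log2 fold change was -0.83 with an interval of -1.46 to -0.19, an unadjusted p of 0.0121 and an adjusted p of 0.0814, so it was not called. *Igfbp2* passed under 2 of the 15 alternative settings, without Bbs8-/- replicate 3 (-1.28, adjusted p = 0.00736) and with a replicate block (-0.95, adjusted p = 0.0366). The log2 fold change was -0.59 without Bbs8-/- replicate 1 (adjusted p = 0.247) and -0.67 without Bbs8-/- replicate 4 (adjusted p = 0.228).

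*Igfbp6* (chr15:102144362-102149511, plus strand), whose protein prefers IGF-II, had 82, 35, 48 and 43 counts in Bbs8+/+ and 61, 54, 45 and 56 in Bbs8-/- libraries. Its level was 19.1 ± 6.38 CPM in Bbs8+/+ and 20.5 ± 3.12 in Bbs8-/- RPE (log2 fold change 0.10, adjusted p = 0.886). *Igfbp3* (chr11:7206086-7213923, minus strand), the main carrier of IGFs in serum, was near the floor with 1, 6, 4 and 20 counts in Bbs8+/+ and 7, 4, 3 and 23 in Bbs8-/- libraries. In both genotypes replicate 4 held most of its counts. A difference was not detectable at this depth (log2 fold change 0.23, standard error 0.80, adjusted p = 0.912).

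**Figure D2:**
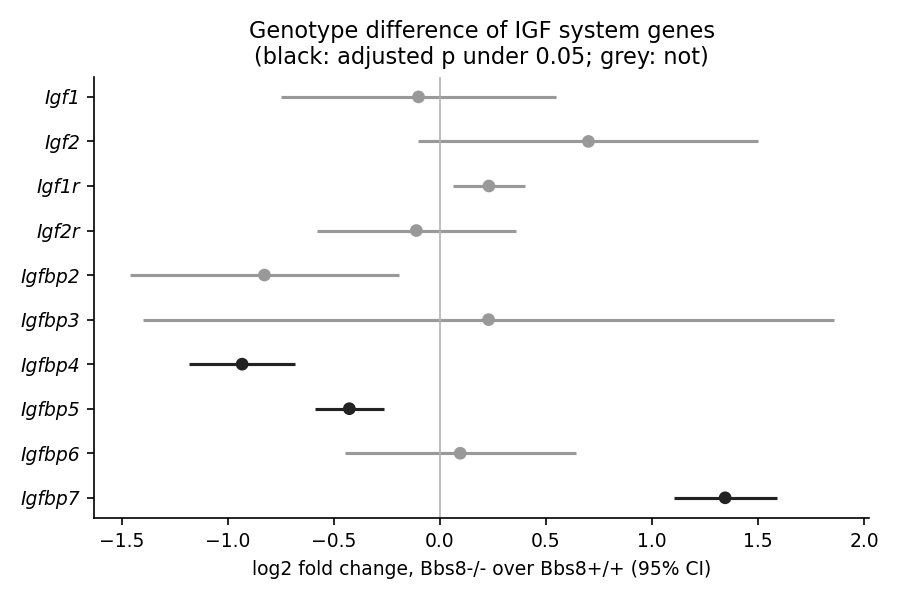
Log2 fold change of each IGF system gene, Bbs8-/- over Bbs8+/+, with bars for the 95% confidence interval, in black for an adjusted p under 0.05 and in grey otherwise. The intervals of *Igfbp4* (-1.18 to -0.68), *Igfbp5* (-0.59 to -0.27) and *Igfbp7* (1.10 to 1.59) are narrow and away from 0, and those of *Igf1*, *Igf2*, *Igf2r*, *Igfbp3* and *Igfbp6* cross 0.

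The order of the members changed at its top. In Bbs8+/+ RPE the order was *Igfbp5*, *Igf1r*, *Igfbp7*, *Igfbp4*, *Igf2r*, *Igfbp2*, *Igfbp6*, *Igf1*, *Igf2* and *Igfbp3*, where *Igfbp7* overlapped *Igfbp4* and each gene from *Igf2r* downward overlapped the next. In Bbs8-/- RPE *Igf1r*, *Igfbp5* and *Igfbp7* came first with overlapping ranges of 479 to 564, 460 to 538 and 447 to 500.2 CPM. *Igfbp4* followed apart from its neighbours, and the 6 remaining genes again overlapped in turn. Over all genes tested *Igfbp5* was placed 141, *Igf1r* 188, *Igfbp7* 354 and *Igfbp4* 1205 by mean CPM.

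The counts of the 6 binding proteins together stayed in the same range while their make-up differed. Their summed level was 1072 ± 110 CPM in Bbs8+/+ (923 to 1166) and 1091 ± 54.6 CPM in Bbs8-/- RPE (1032 to 1155), so the Bbs8-/- libraries lay within the Bbs8+/+ range, and no test was run on the sum. The low end of 923 CPM was Bbs8+/+ replicate 1. Without it the Bbs8+/+ range was 1055 to 1166 CPM, and the difference between the group means turned from 18.6 to -31.06 CPM. *Igfbp5* made up 62.9% of the sum in Bbs8+/+ (60.5% to 67.1%) and 45.8% in Bbs8-/- RPE (44.6% to 46.7%). *Igfbp7* made up 16.9% (12.3% to 18.8%) and 42.5% (41.3% to 43.5%), and *Igfbp4* 16.0% (15.3% to 17.5%) and 8.27% (7.16% to 9.26%). The sum thus includes *Igfbp7*, whose protein binds IGFs weakly. The level left to the other binding proteins was lower in every Bbs8-/- library than in any Bbs8+/+ library. A similar sum therefore does not mean a similar level of the classical binding proteins. Per count of *Igfbp5* there were 0.184 to 0.311 counts of *Igfbp7* in Bbs8+/+ and 0.884 to 0.977 in Bbs8-/- libraries, a ratio within a library that no scaling between libraries can move.

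**Figure D3:**
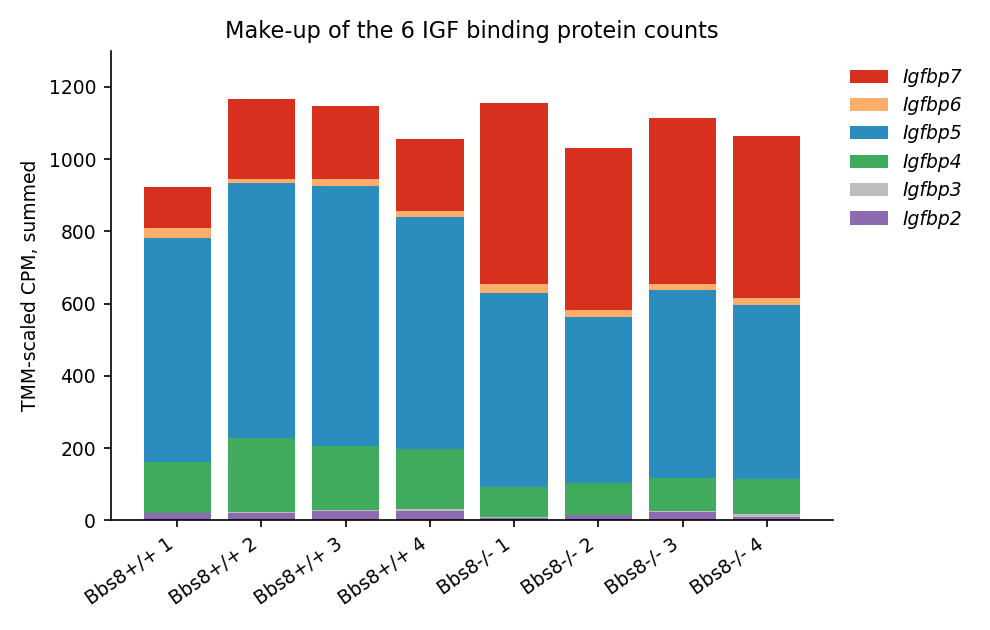
Summed TMM-scaled CPM of the 6 IGF binding protein genes in each library, as stacked bars with 1 color per gene. Bar heights are 923 to 1166 CPM in Bbs8+/+ and 1032 to 1155 in Bbs8-/- libraries, while the red *Igfbp7* part takes 12.3% to 18.8% of a Bbs8+/+ bar and 41.3% to 43.5% of a Bbs8-/- bar.

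The tissue held RNA of other cells, and several marker lists moved with the genotype. The summed RPE markers were at 37872 to 39015 CPM in Bbs8+/+ and 46669 to 50224 CPM in Bbs8-/- libraries, with 4 of 13 genes up-regulated and 3 down-regulated. The gain was that of *Ttr*, the transthyretin gene, at 20970 and 31805 CPM. The other 12 RPE markers summed to 17123 to 17972 CPM in Bbs8+/+ and 16670 to 17098 CPM in Bbs8-/- libraries, a lower range, with *Rpe65*, *Rdh5* and *Pmel* down-regulated and *Otx2*, *Slc16a8* and *Ezr* up-regulated. The visual cycle gene *Rpe65* stood at 4648 and 3923 CPM and *Rlbp1* at 1842 and 1892 CPM, whereas the RPE channel gene *Best1* was near the floor at 1.06 and 0.939 CPM. Lower in all Bbs8-/- libraries were photoreceptor markers, at 56607 to 60437 CPM in Bbs8+/+ and 23755 to 24482 CPM in Bbs8-/- (12 of 18 down-regulated, 4 up-regulated), lens markers, at 3524 to 3715 and 482 to 527 CPM (19 of 19 tested down-regulated), and erythrocyte markers, at 5162 to 5727 and 1989 to 2222 CPM (5 of 5 down-regulated). The 4 up-regulated photoreceptor markers were the cone genes *Opn1sw* (log2 fold change 0.76), *Opn1mw* (0.84), *Gnat2* (0.70) and *Pde6h* (1.21). The cone gene *Arr3* was not called (-0.13). Higher in all Bbs8-/- libraries were Müller glia markers, at 1648 to 1814 CPM in Bbs8+/+ and 2396 to 2532 CPM in Bbs8-/- (3 of 7 up-regulated), reactive glia markers, at 14.2 to 24.3 and 636 to 716 CPM (5 of 6 up-regulated), and ocular surface markers, at 0.339 to 2.62 and 36.2 to 61.7 CPM (4 of 4 tested up-regulated, *Krt12* at 0 in all libraries). The part of these cells in the changes of *Igfbp4*, *Igfbp5* and *Igfbp7*, and of the pathway genes given below, was not tested. The Müller glia sum was mostly *Glul* (1201 and 1712 CPM) and *Sox9* (481 and 601 CPM), which were called up-regulated together with *Dkk3*. *Slc1a3*, *Aqp4*, *Kcnj10* and *Gpr37* were also higher (log2 fold change 0.74 to 1.93) but were not called (adjusted p = 0.102 to 0.534, edgeR). Whether the rise of this sum came from Müller glia was not tested. In bulk RNA fewer cells of a type and less RNA per cell cannot be told apart.

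Stromal and vascular cells are rich in several IGF binding proteins in many tissues. Endothelial markers summed to 42.1 to 49.7 CPM in Bbs8+/+ and 45.2 to 54.2 CPM in Bbs8-/- libraries and pericyte and smooth muscle markers to 167 to 205 and 148 to 203 CPM. In each of these lists 0 of 9 tested genes were called by edgeR, 0 had an unadjusted p under 0.05 and 0 were called by DESeq2. Apart from *Kdr*, the endothelial markers averaged under 10 CPM in both genotypes and had wide intervals. Examples are *Pecam1* (log2 fold change 0.95, interval -0.88 to 2.78) and *Egfl7* (-0.75, -1.88 to 0.39). Of the 9 tested endothelial genes 7 were higher in Bbs8-/- RPE and 2 lower, and the counts of 0 do not show equal levels. Fibroblast markers summed to 1171 to 1573 and 1126 to 1290 CPM, with 2 of 10 down-regulated (*Col1a1* and *Col3a1*, collagen genes). The 1171 CPM was that of Bbs8+/+ replicate 1. Without it the Bbs8+/+ libraries stood at 1453 to 1573 CPM, above all Bbs8-/- libraries. Of the 10 fibroblast genes 8 were lower in Bbs8-/- RPE, 4 of them at an unadjusted p under 0.05, and 2 were higher. Microglia markers summed to 353 to 456 and 355 to 390 CPM with 1 of 9 tested up-regulated, Schwann cell and melanocyte markers to 120 to 179 and 154 to 177 CPM with 0 of 2 tested called (0 at an unadjusted p under 0.05 and 0 by DESeq2), and inner retinal neuron markers to 501 to 527 and 457 to 526 CPM with 1 of 8 down-regulated. The largest part of each of these sums was, in that order, *Csf1r* (319 and 263 CPM), *Sox10* (141 and 159 CPM) and *Slc6a9* (381 and 389 CPM).

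**Figure D4:**
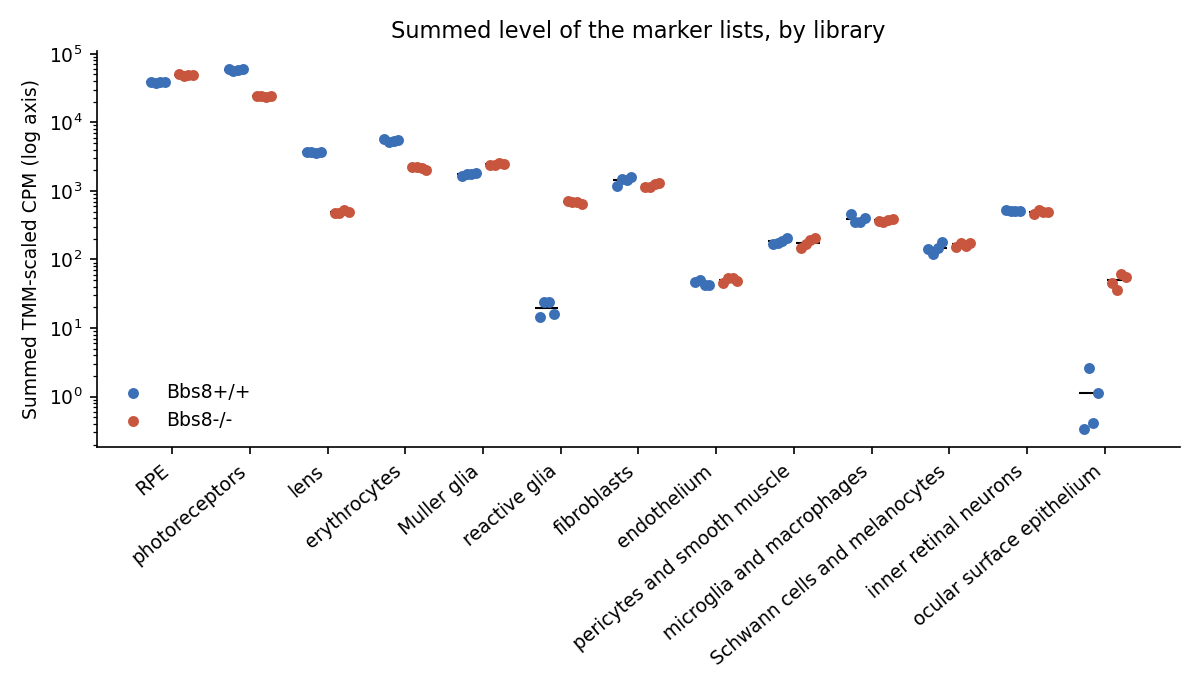
Summed TMM-scaled CPM of 13 marker lists in each library, on a log axis, with Bbs8+/+ in blue, Bbs8-/- in red and a line at each mean. Lens, photoreceptor and erythrocyte sums are lower and reactive glia, Müller glia and ocular surface sums higher in all 4 Bbs8-/- libraries, while endothelial sums lie at 42.1 to 54.2 CPM throughout. The gain of the RPE sum is that of *Ttr*, and the Müller glia sum is mostly *Glul* and *Sox9*.

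The genes around the IGF system were followed in 7 lists of 92 genes, of which 79 were tested. Of these, 6 were up-regulated, 7 were down-regulated and 66 passed in neither direction, so that 16.5% were called against 12.3% of all genes tested. Their median log2 fold change was 0.06, beside 0.02 over all genes.

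Outside the cell, 10 of 14 proteases and partners of IGFs and their binding proteins were tested. *Vtn*, vitronectin, a matrix protein that binds complexes of IGFs with binding proteins, fell from 418 ± 55.6 to 165 ± 10.8 CPM (log2 fold change -1.34, adjusted p = 2.66e-13). The summed photoreceptor markers were also lower in all Bbs8-/- libraries, and the part of photoreceptor RNA in the *Vtn* counts was not tested. The other 9 did not pass, among them the binding protein proteases *Htra1* (-0.43, adjusted p = 0.155) and *Adamts1* (0.51, adjusted p = 0.181) and the lysosomal protease *Ctsd* (0.19, adjusted p = 0.0540). *Pappa*, which encodes PAPP-A, averaged under 2 CPM in both genotypes (log2 fold change 0.76, adjusted p = 0.770).

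The related proteins that carry an IGF binding domain split in direction, with 2 up-regulated and 1 down-regulated of 5 tested. *Ccn2*, connective tissue growth factor, stood at 51.2, 146, 235 and 174 CPM in Bbs8+/+ and at 261, 249, 279 and 264 CPM in Bbs8-/- libraries. The groups did not overlap, and Bbs8+/+ replicate 1 was the lowest library, as it was for *Igfbp7*. The log2 fold change of *Ccn2* was 0.80 (adjusted p = 0.00372) and 0.51 without that library (adjusted p = 1.59e-04). DESeq2 did not call it (adjusted p = 0.216). *Ccn1*, its close relative, rose by 0.45 on the log2 scale (adjusted p = 0.0162), a call lost without Bbs8+/+ replicate 4 (adjusted p = 0.0925) or Bbs8-/- replicate 1 (0.106). *Ccn4*, a WNT-induced member of the same family, fell from 49.6 to 16.5 CPM (log2 fold change -1.58, adjusted p = 9.21e-07).

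Within the cell the substrates differed. *Irs1*, an insulin receptor substrate, stood at 5.77, 8.97, 6.14 and 3.72 CPM in Bbs8+/+ and at 20.2, 25.5, 18.04 and 23.1 CPM in Bbs8-/- libraries. All 4 Bbs8-/- libraries were at least 2-fold above the highest Bbs8+/+ library, and the log2 fold change was 1.81 (adjusted p = 9.16e-05). *Irs2*, the more abundant substrate gene, was at 221 and 219 CPM (log2 fold change -0.02, adjusted p = 0.942), and the insulin receptor gene *Insr* at 48.7 and 49.2 CPM (0.01, adjusted p = 0.985). Of the 28 genes tested in the PI3K-AKT-MTOR list, *Irs1* was the 1 up-regulated gene and 4 were down-regulated. Among these were *Pdpk1*, the kinase that activates AKT (-0.42, adjusted p = 0.0326), *Gsk3a*, a kinase that AKT inhibits (-0.60, adjusted p = 0.0221), and *Foxo3*, a transcription factor that AKT keeps out of the nucleus (-0.47, adjusted p = 0.0325). The call of *Pdpk1* was lost without Bbs8+/+ replicate 2 or 4 or Bbs8-/- replicate 1, 2 or 3 (adjusted p = 0.0640 to 0.157). That of *Gsk3a* was lost without Bbs8+/+ replicate 2 or 3 or Bbs8-/- replicate 1 or 3 (adjusted p = 0.0591 to 0.0965), and that of *Foxo3* without Bbs8+/+ replicate 2 or 3 or Bbs8-/- replicate 1, 2 or 4 (adjusted p = 0.0541 to 0.121). *Akt1* (0.06, adjusted p = 0.855), *Akt2* (0.21, adjusted p = 0.530) and *Mtor* (-0.44, adjusted p = 0.0785) did not pass.

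In the RAS-MAPK list 2 of 14 genes were up-regulated. *Nras*, which encodes a RAS GTPase, rose from 38.4 to 58.0 CPM (log2 fold change 0.59, adjusted p = 0.0210) and *Map2k1*, the kinase upstream of ERK, from 34.9 to 59.4 CPM (0.77, adjusted p = 0.00506). Without Bbs8+/+ replicate 1, the lowest library for *Map2k1*, its log2 fold change was 0.60 (adjusted p = 0.0229). The call of *Nras* was lost without Bbs8+/+ replicate 2 or Bbs8-/- replicate 1 or 4 (adjusted p = 0.0610 to 0.0879). Among 8 tested genes of feedback and adaptor proteins *Socs3*, a cytokine-induced inhibitor that also binds the IGF-I and insulin receptors, rose from 52.7 ± 13.7 to 131 ± 15.3 CPM (1.32, adjusted p = 2.71e-08), with 33.2 to 62.5 CPM in Bbs8+/+ and 109 to 142 CPM in Bbs8-/- libraries. The other 7 did not pass, among them *Grb10* (-0.09, adjusted p = 0.810) and *Ptpn1* (0.41, adjusted p = 0.0625).

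Of 7 tested regulators of IGF genes and their RNAs, 0 were called by edgeR, 2 had an unadjusted p under 0.05 and 1 was called by DESeq2. Those 2 were the transcription factor genes *Stat5a* (log2 fold change 1.31, adjusted p = 0.0514) and *Plagl1* (0.90, adjusted p = 0.0653). Of 7 genes of mannose 6-phosphate sorting, 0 were called by edgeR, 1 had an unadjusted p under 0.05 (*Gga3*, -0.59, adjusted p = 0.177) and 0 were called by DESeq2. *H19*, the imprinted neighbor of *Igf2*, stood at 67.5 and 65.5 CPM (log2 fold change -0.04, adjusted p = 0.940).

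**Figure D5:**
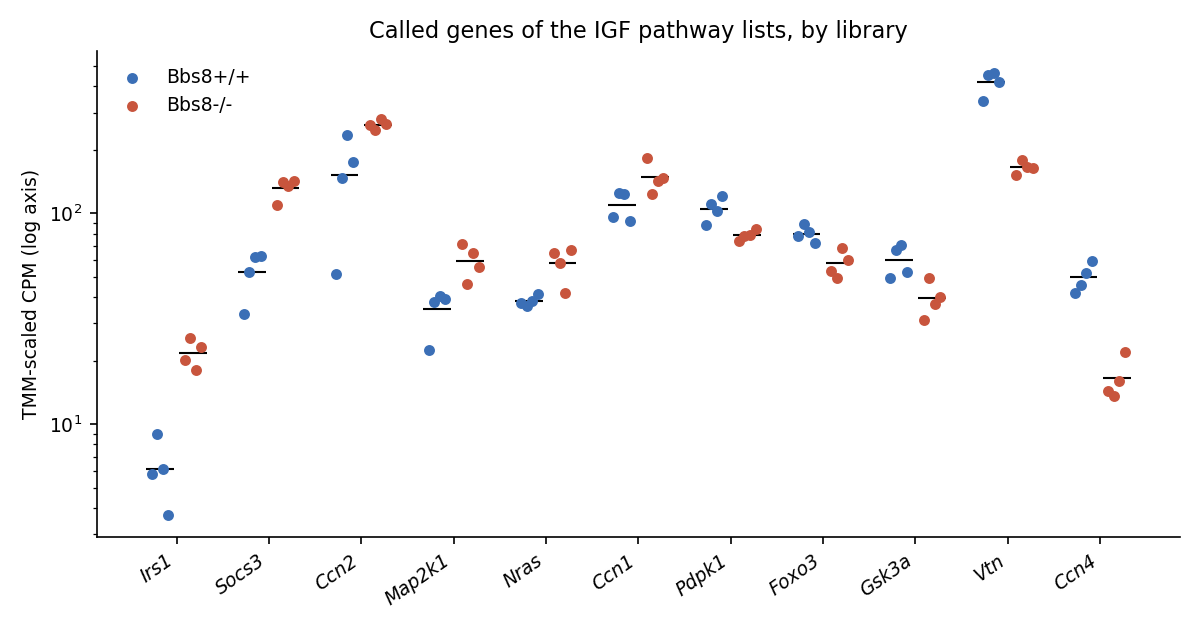
Level of called genes of the IGF pathway lists in each library, as TMM-scaled CPM on a log axis, ordered from the largest rise to the largest fall, with Bbs8+/+ in blue, Bbs8-/- in red and a line at each mean. *Irs1* and *Socs3* are separated between genotypes on the left and *Vtn* and *Ccn4* on the right, and *Ccn2* has a low Bbs8+/+ library at 51.2 CPM.

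For each called member the 3 genes with the most similar pattern over the 8 libraries were listed by Pearson's r of log2 CPM, as a description, since all values share the libraries and the contrast between genotypes. *Igfbp7* was closest to the amino acid transporter gene *Slc6a20a* (r = 0.992), the P-cadherin gene *Cdh3* (0.991) and *Dlgap1* (0.986). *Cdh3* rose from 35.3 to 109 CPM. *Igfbp4* was closest to *Spop* (0.983), the lens crystallin gene *Cryba4* (0.982) and *Stra6*, the receptor for retinol binding protein in RPE (0.981). *Stra6* fell from 388 to 288 CPM and *Cryba4* from 84.3 to 16.0 CPM. *Igfbp5* was closest to *Plekhf2* (0.981), *Dhx30* (0.979) and *Nsf* (0.974).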

How the data were processed

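RNA of RPE isolated at P29 was measured in 8 QuantSeq 3′ libraries, 4 from Bbs8-/- and 4 from Bbs8+/+ mice, grouped from their labels. Per the study's methods each animal was 1 biological replicate. The authors trimmed single-end reads of 100 bp with BBDuk, aligned them to mm10 with STAR, and deposited htseq-count counts per Ensembl gene without normalization; the strand setting is not given in the sources used here. Reads outside genes, not unique or ambiguous were 50.95% to 54.2% of a library and stayed out of library sizes.

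Counts were tested here in R 4.3.3 with edgeR 4.0.16 (quasi-likelihood F test, two-sided, TMM scaling, a minimum of 1 CPM in 4 or more libraries, Benjamini-Hochberg over 12889 genes, threshold 0.05). The authors' filter on multi-mapping reads was not repeated. Symbols and coordinates came from GENCODE M21 (GRCm38), which named 31011 of 31053 identifiers, and promoters from RefSeq (GRCm38.p6). Scripts were tested on simulated data.

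The members and all lists were chosen with earlier results of these data known. Named were the members, *Ttc8*, pathway list genes past the threshold or used as comparison, the 3 genes with the highest Pearson r for each called member among genes of at least 10 CPM, and marker lists as sums. A few genes under this rule are not reported here. Other single genes were named after their values were seen. Alternatives were DESeq2 1.42.0, library size scaling, TMM factors from genes other than photoreceptor, lens and erythrocyte markers, 2 further filters, a replicate block, a test against a 1.2-fold change, an adjusted p of 0.01, and each library left out.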

Additional observations from a re-analysis of the deposited data

Results flagged for a closer look

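Within each genotype the 4 libraries were searched for 1 that lay far from the other 3 (Dixon's criterion at 95%) in 74 groups of values, of the members, the binding protein sum, the called pathway genes and the marker sums. It was met in 3 groups, and chance alone flags about 1 group in 20. *Igf2* stood at 12.3 CPM (33 counts) in Bbs8+/+ replicate 2, above 5.09 to 5.58 CPM in the other Bbs8+/+ libraries. *Map2k1* stood at 22.4 CPM in Bbs8+/+ replicate 1, below 37.7 to 40.5 CPM in the others. The summed lens markers stood at 527 CPM in Bbs8-/- replicate 3, above 482 to 489 CPM in the others.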

How the results depend on the processing

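*Igfbp4* and *Igfbp7* kept their direction and passed under all 15 alternatives, with log2 fold changes of -1.02 to -0.84 and 1.17 to 1.45, and *Igfbp5* under 14 of 15 (-0.46 to -0.34). Up-regulated genes numbered 353 and down-regulated genes 494 in the test against a fold change of 1.2, and 394 and 571 at an adjusted p of 0.01. Up-regulated members numbered 2 with DESeq2, library size scaling or edgeR's filterByExpr, the second being *Igf1r*, and 1 to 2 when 1 library was left out (*Igf1r* passed without Bbs8+/+ replicate 3, adjusted p = 0.0494). Down-regulated members numbered 1 in the test against 1.2-fold, and 2 to 3 when 1 library was left out. Pathway genes called up numbered 13 under library size scaling, and those called down 4 under it, 3 against 1.2-fold, 4 at an adjusted p of 0.01 and 4 to 8 when 1 library was left out, the lowest without Bbs8+/+ replicate 2.

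Scaling by library size alone made 60.6% of all calls up-regulated, against 44.5% in the main setting, and moved the median log2 fold change of all genes from 0.02 to 0.11. Leaving out 1 library gave -0.24 to 0.070 for *Igf1*, -0.28 to 0.043 for *Igf2r*, -0.65 to 1.27 for *Igfbp3* and -0.047 to 0.34 for *Igfbp6*, each crossing 0, and filterByExpr dropped *Igfbp3*. The summed level of the binding proteins differed by 18.6 CPM between genotypes. Over its alternatives the difference was -31.06 CPM (without Bbs8+/+ replicate 1) to 84.3 CPM (library size scaling). The causes were not tested. For *Ttc8* and the called pathway genes the same settings were added after seeing the data: *Vtn*, *Ccn4*, *Irs1*, *Map2k1* and *Socs3* passed under all 15, and *Pdpk1* and *Foxo3* under 8.

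Libraries with the same replicate number did not deviate together (correlations of -0.0564 to 0.00527), and most correlated better with another number than their own, so the numbers are taken not to pair them. With a replicate block 1 member was up-regulated and 3 were down-regulated, the third being *Igfbp2* (-0.95, adjusted p = 0.0366). Genes under about 100 counts, which include both ligands, give wide intervals at this depth.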
